A study of Mus musculus with 11 samples.

Results

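The 5 genes described here are parts of the sodium pump other than its catalytic chain: the beta subunits Atp1b1, Atp1b2 and Atp1b3 and the FXYD proteins Fxyd3 and Fxyd5. They were taken from the 23835 named genes of the deposited table by matching Entrez Gene identifiers (11931, 11932, 11933, 17178 and 18301) to these symbols. They were picked with their levels in all 3 groups already known, so their levels and differences are given as a description with no p-value. Tests are given for other genes, and of the members only how many the fit of all genes called. The list holds no catalytic alpha subunit of the pump.

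The series followed mouse mammary tumour cells of the genotype MMTV-rtTA;TetO-Wnt1. In these cells the MMTV promoter, which is active mainly in mammary epithelium, drives a transactivator that switches the Wnt1 transgene on when doxycycline is given. All 11 samples were such cells, marked with H2B-eGFP (a fluorescent histone), grown orthotopically in female nu/nu mice and titled GFP plus, and each was measured on 1 array. The 4 primary arrays are of untreated tumours, in hosts on doxycycline. The 3 residual arrays are of lesions 28 days after doxycycline withdrawal, and the 4 recurrent arrays are of tumours that grew back, with the same label of Wnt1 inhibition and no stated day. The nu/nu hosts lack a thymus but keep macrophages and other immune cells. The sources used here give neither the hosts' age nor whether the cells come from 1 clone, and no label ties an array to an animal. The spread that each p-value uses is that between these arrays, and it may be technical.

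The sodium pump moves sodium out of the cell and potassium in, using ATP. Its alpha subunit does the transport, its beta subunit is a glycoprotein needed to fold the alpha subunit and carry it to the membrane, and a small FXYD protein may join them and tune the pump's affinity for the ions. Epithelia use the pump to drive uptake of nutrients and secretion, and both beta subunits and FXYD proteins have been linked to adhesion between cells. Atp1b1 is the common beta subunit of epithelia, Atp1b2 is the form first known as an adhesion molecule on glia, and Atp1b3 is a widely expressed form. Fxyd3, or Mat-8, was found in mouse mammary tumours, and Fxyd5, or dysadherin, is known for weakening adhesion through E-cadherin.

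Values are log2 signals, on which 1 unit is a doubling. A signal counts as above background when it exceeds the 95th percentile of the 1083 olfactory receptor genes on the same array. That level was 4.00 to 4.03 on primary, 4.35 to 4.39 on residual and 4.06 to 4.12 on recurrent arrays, against array medians between 4.29 and 4.41. Of the 5 genes, 4 were above background on at least 3 arrays, as were 13637 of all genes. The targeted gene gave no check of the labels: Wnt1 lay below background on all 11 arrays, at 3.04 ± 0.04 (SD, n = 4) on primary, 3.12 ± 0.10 (n = 3) on residual and 3.06 ± 0.15 (n = 4) on recurrent arrays. The sources used here do not say whether its probes read the transgene. Of the markers of other cell types, lymphocyte genes (Nkg7, Cd3d and Ncr1 were the brightest) were near background: 11 of 11 lay below it on every primary array, 9 on every residual array and 10 on every recurrent array. Endothelial genes (Cdh5, Egfl7 and Pecam1 the brightest) averaged 3.38 to 4.03 per array, muscle genes (Tnnt3, Acta1, Tagln) 3.85 to 4.75 and adipocyte genes (Fabp4, Pck1, Plin1) 3.43 to 4.04. Recurrent replicate 3 stood apart in a few of them, as was seen after the values were known: the endothelial cadherin Cdh5 read 10.13 there and 4.13 to 5.72 on the other arrays, and the smooth muscle genes Cnn1 and Actg2 read 7.50 and 6.02, against at most 3.90 and 4.42 on the others.

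The promoters of the FXYD genes that differed and of the 2 members in contrast to them show what lies before each start site. They come from RefSeq with assembly GRCm38.p6, whose table held 9 of the 12 pump and FXYD genes looked for. Each line gives the 150 bases just before the annotated start, 5′ to 3′ on the gene's own strand, and capitals mark a match to a searched motif on either strand. The motifs were the CCAAT box (ATTGG on the other strand), the GC box GGGCGG (or CCGCCC), the TATA box TATAA (or TTATA) and the E-box CACCTG (or CAGGTG). No match overlaps another in the stretches shown. The lines are Fxyd3 at chr7:31076698-31076847 (minus strand), Fxyd6 at chr9:45370035-45370184 (plus strand), Fxyd5 at chr7:31042332-31042481 (minus strand) and Atp1b1 at chr1:164458356-164458505 (minus strand).
Fxyd3: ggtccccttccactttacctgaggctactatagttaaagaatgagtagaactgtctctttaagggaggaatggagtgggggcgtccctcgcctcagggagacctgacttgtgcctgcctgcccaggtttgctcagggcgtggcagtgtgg
Fxyd6: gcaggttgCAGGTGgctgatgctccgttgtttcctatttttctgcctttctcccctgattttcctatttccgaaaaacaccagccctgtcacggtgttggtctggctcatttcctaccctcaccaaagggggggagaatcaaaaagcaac
Fxyd5: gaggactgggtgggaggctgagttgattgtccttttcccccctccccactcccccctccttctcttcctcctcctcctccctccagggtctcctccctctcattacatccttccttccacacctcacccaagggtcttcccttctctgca
Atp1b1: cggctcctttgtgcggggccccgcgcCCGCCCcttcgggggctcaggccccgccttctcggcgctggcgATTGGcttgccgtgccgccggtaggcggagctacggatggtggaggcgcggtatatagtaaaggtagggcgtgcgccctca
Over the 250 bases before the start, Fxyd3 had 5 CpG dinucleotides and 55.2% GC, Fxyd6 had 5 and 50.4%, and Fxyd5 had 3 and 55.6%, near the medians of 6 and 52.4% over all 32851 promoters of that table. Atp1b1 stood apart from them with 24 CpG dinucleotides, more than in 88.0% of promoters, and 70.4% GC. In that window CCAAT was found before Fxyd3 (169 bases upstream), Fxyd6 (159) and Atp1b1 (81), as before 33.8% of all promoters. GGGCGG lay before Atp1b1 at 205 and 124 bases upstream (32.7% of all promoters hold it), CACCTG before Fxyd6 at 142 (17.2%), TATAA before none of the 4 (22.8%), and no motif matched before Fxyd5. A match is a string of letters, not a tested site.

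Of the 5 genes, Fxyd3 was the one whose residual arrays stood apart from both other groups. Its log2 signal was 3.91, 4.72, 4.79 and 5.95 on the primary arrays, 7.84, 9.57 and 7.71 on the residual arrays, and 6.81, 6.53, 4.35 and 4.65 on the recurrent arrays. All 3 residual arrays lay above every primary and every recurrent array, while the recurrent arrays were split, with replicates 1 and 2 above all primary arrays and replicates 3 and 4 among them. The group means were 4.84 ± 0.84 (SD, n = 4), 8.37 ± 1.04 (n = 3) and 5.58 ± 1.26 (n = 4). Residual cells thus exceeded primary cells by 3.53 log2 units (SE 0.69), or 11.5-fold, and recurrent cells lay -2.79 (SE 0.69) from residual cells, 6.90-fold lower. Recurrent and primary cells overlapped, at a difference of 0.74 (SE 0.64). Without recurrent replicate 3, the array high in Cdh5 and lowest of its group in Fxyd3, these were -2.38 from residual and 1.15 from primary cells, and the part of those marker genes in the Fxyd3 level was not tested. The lowest signal, on primary replicate 1, was below background, so the distance to that array is a distance to background. In arrays of a whole sample, fewer cells of a type and less RNA per cell cannot be told apart.

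**Figure D1:**
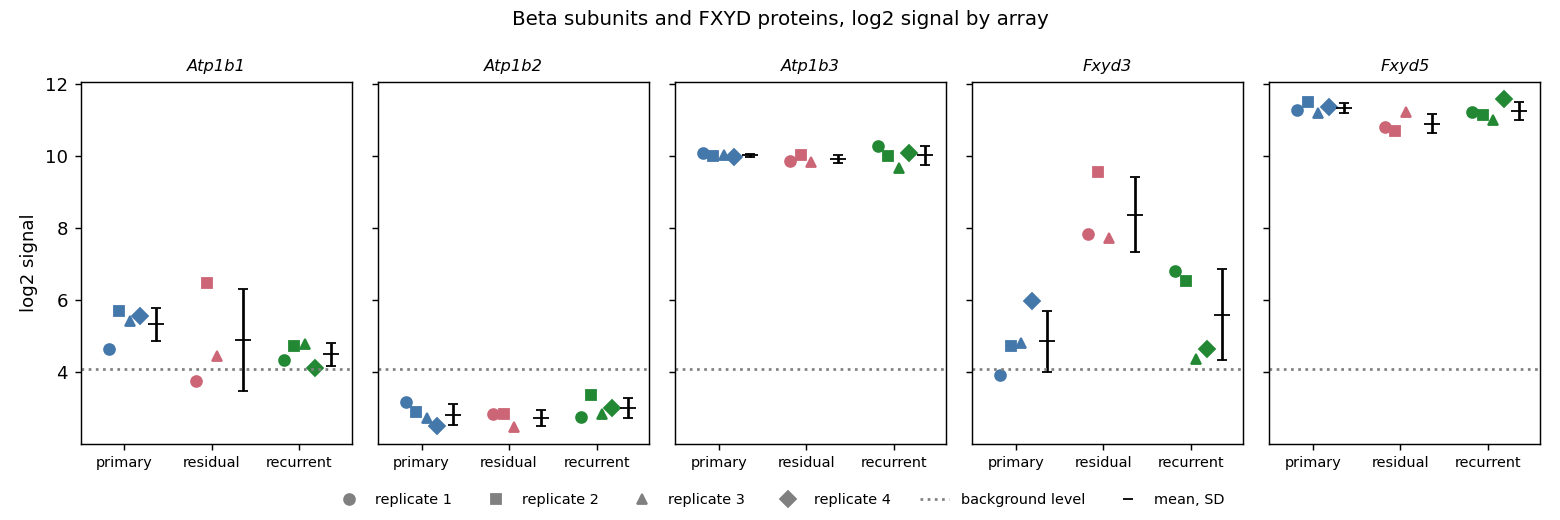
Log2 signal of the 5 beta and FXYD genes on each of the 11 arrays, by group, with replicate numbers as point shapes and the mean and SD beside the points. Fxyd3 has its 3 residual arrays at 7.71 to 9.57, above the 4 primary arrays at 3.91 to 5.95, and the other 4 genes have groups that overlap.

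Fxyd5 was bright in every group and varied little. Its log2 signal was 11.28, 11.50, 11.18 and 11.36 in primary, 10.80, 10.69 and 11.21 in residual, and 11.23, 11.14, 11.01 and 11.59 in recurrent cells. Residual replicates 1 and 2 were the lowest of the 11 arrays, but residual replicate 3 lay above primary replicate 3, so the groups overlapped. The means were 11.33 ± 0.13 (SD, n = 4), 10.90 ± 0.28 (n = 3) and 11.24 ± 0.25 (n = 4). The residual mean was -0.43 (SE 0.17) from the primary mean and the recurrent mean 0.34 (SE 0.17) above the residual mean. After scaling the arrays to a common median and interquartile range these became -0.13 and 0.09. Fxyd3 and Fxyd5 lie 3 genes apart on chromosome 7, and their highest group means were in different groups.

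Among the beta subunits Atp1b3 was the steadiest. It read 10.08, 10.00, 10.02 and 9.98 in primary, 9.86, 10.04 and 9.84 in residual, and 10.29, 10.00, 9.68 and 10.09 in recurrent cells. All 3 groups overlapped, and the 4 primary arrays lay within a narrow band that the recurrent arrays straddled. The means were 10.02 ± 0.04 (SD, n = 4), 9.91 ± 0.11 (n = 3) and 10.01 ± 0.25 (n = 4), with differences of -0.11 (SE 0.14) for residual and -0.01 (SE 0.13) for recurrent against primary cells. The first of these has no stable sign, being 0.06 after quantile normalization and 0.13 after scaling to a common interquartile range. Its 95% interval ran from -0.43 to 0.21 log2 units.

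Atp1b1 had the largest SD within a group of the 5 genes, in residual cells. It read 4.63, 5.69, 5.40 and 5.54 in primary, 3.73, 6.47 and 4.43 in residual, and 4.34, 4.72, 4.77 and 4.11 in recurrent cells. Both the highest and the lowest of the 11 arrays were residual, replicate 2 and replicate 1, and replicate 1 was below background. The residual SD of 1.42 (n = 3) exceeded that of 99.5% of the 13637 genes above background on at least 3 arrays. The SDs were 0.47 in primary and 0.32 in recurrent cells (n = 4 each). The primary mean was 5.31, the residual mean 4.88 and the recurrent mean 4.48, which gave -0.44 (SE 0.51) for residual against primary, -0.83 (SE 0.48) for recurrent against primary and -0.39 (SE 0.51) for recurrent against residual cells. One array decided the first and last of these: without residual replicate 2 they were -1.23 and 0.40, and without residual replicate 1 the first was 0.14 and the last was -0.97.

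Atp1b2 was below background on all 11 arrays. Its signal ran from 2.48 to 3.16 in primary, 2.46 to 2.83 in residual and 2.73 to 3.36 in recurrent cells, with means of 2.81 ± 0.29 (SD, n = 4), 2.71 ± 0.22 (n = 3) and 2.98 ± 0.28 (n = 4). The groups overlapped, residual replicates 1 and 2 had equal values, and no order can be read from signals at that level. Glial markers would accompany this subunit in nervous tissue. Of the 7 measured, Gfap and Cdh19 were below background and 5 were above it on every residual array. S100b, a calcium-binding protein of glia that other cells also make, rose by 4.59 (adjusted p = 8.53e-05) in residual cells, and Sox10 was also called higher there.

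Read against all genes, the members were few among many. In residual against primary cells 12.4% of all genes were called, meaning an adjusted p under 0.05 with limma and the Benjamini-Hochberg method over the 23835 genes, with 4.81% higher and 7.61% lower. Of the 5 members 1, Fxyd3, was called there and was also the only one whose groups did not overlap, which held for 24.8% of all genes. In recurrent against primary cells 1.8% of genes were called (0.818% higher and 0.986% lower), with groups that did not overlap for 9.02%. There 0 of 5 members were called or did not overlap. In recurrent against residual cells 5.78% of genes and 1 of 5 members, Fxyd3 again, were called, while groups did not overlap for 15.5% of all genes. That count of members was 0 with only those 2 groups, with a replicate block and without residual replicate 1, 2 or 3, among other settings. Since the members were chosen on these values, nothing is read from those counts. The median log2 difference of the 5 members was -0.11, -0.01 and 0.10 in the 3 comparisons, and that of all genes was 0.03, -0.01 and -0.03. Residual against primary and recurrent against residual cells share the residual arrays, so a high residual level enters both.

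**Figure D2:**
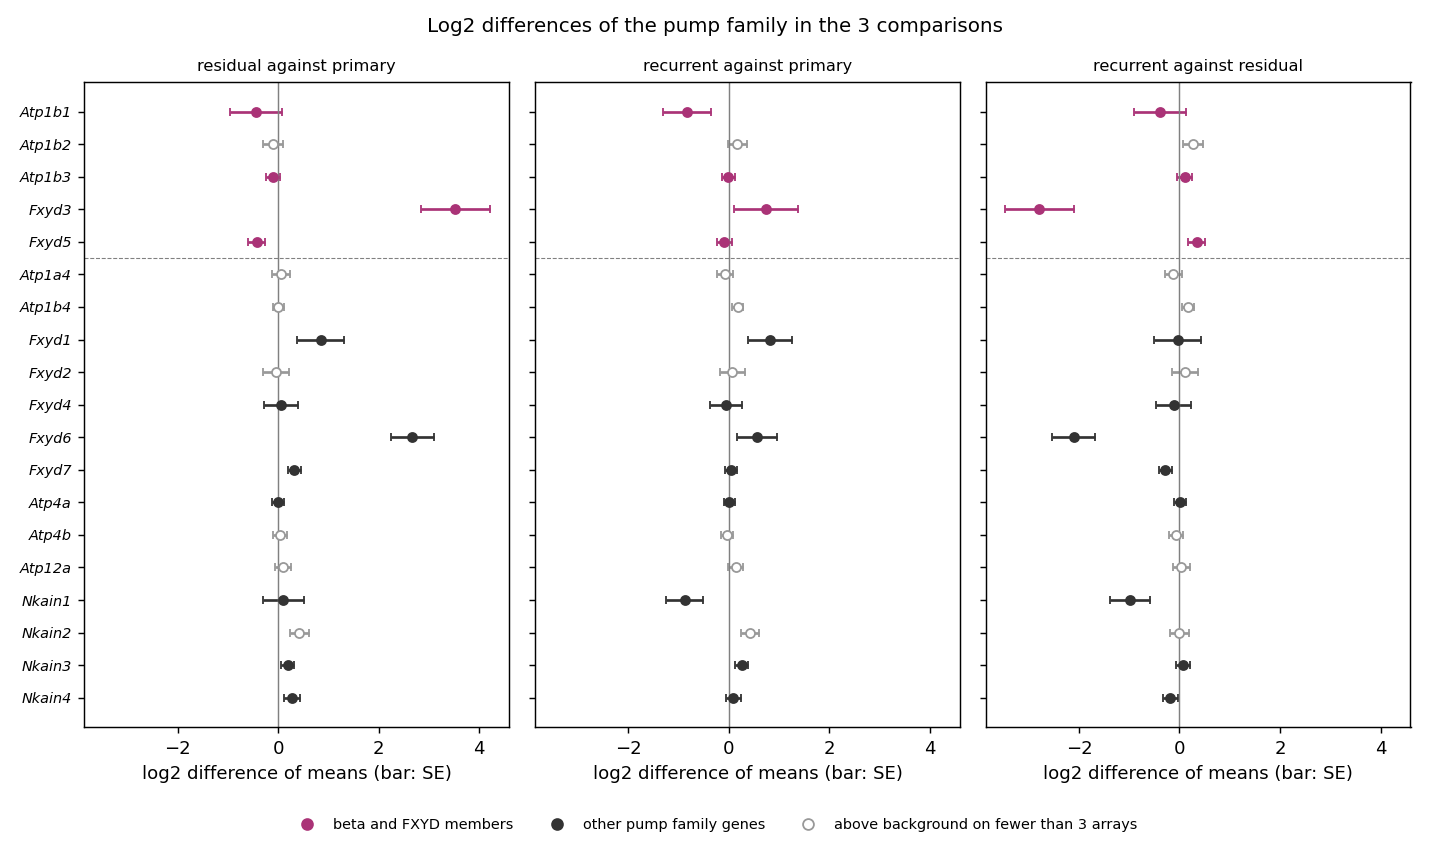
Log2 difference of group means with its SE (horizontal axis) for the 5 beta and FXYD genes and 14 other genes of the pump family (vertical axis), 1 panel per comparison; open points were above background on fewer than 3 arrays. Fxyd3 (3.53) and Fxyd6 (2.66) stand to the right in residual against primary cells and to the left (-2.79 and -2.10) in recurrent against residual cells.

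Of the 5 other FXYD genes, Fxyd6 rose in residual cells as Fxyd3 was seen to be higher there. Fxyd6, also called phosphohippolin, read 4.18, 4.63, 3.90 and 4.15 in primary, 5.50, 7.62 and 7.51 in residual, and 4.92, 5.10, 4.44 and 4.64 in recurrent cells. The residual arrays lay above all others, and residual replicate 1 was the closest to the rest. The residual mean of 6.88 ± 1.20 (SD, n = 3) exceeded the primary mean of 4.21 ± 0.30 (n = 4) by 2.66 (SE 0.43, 6.34-fold, adjusted p = 0.00196), which passed in 19 of 19 alternative settings. In recurrent cells, at 4.77 ± 0.29 (n = 4), Fxyd6 fell by 2.10 from the residual level (SE 0.43, adjusted p = 0.0148). That call was lost with only those 2 groups (0.0720) and without residual replicate 2 (0.0595) or 3 (0.0587).

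The remaining FXYD genes did not pass. Fxyd1, phospholemman, read 3.84, 4.09, 4.04 and 3.89 in primary, 3.77, 4.65 and 6.02 in residual, and 5.53, 5.20, 4.01 and 4.35 in recurrent cells, so that 1 residual and 2 recurrent arrays stood out (residual against primary 0.85, adjusted p = 0.292). Fxyd4, known from kidney collecting duct, had means of 5.30 ± 0.50 (SD, n = 4), 5.36 ± 0.77 (n = 3) and 5.24 ± 0.23 (n = 4). Fxyd7, known from brain, had means of 4.78 ± 0.14, 5.10 ± 0.20 and 4.82 ± 0.08 in the same order (residual against primary 0.32, adjusted p = 0.148). Fxyd2, the gamma subunit of kidney, the sperm alpha isoform Atp1a4 and the remaining beta gene, Atp1b4, were below background on all arrays. Of the 3 proton-potassium pump genes, Atp4b and Atp12a were below background on all arrays and Atp4a stayed within 3.93 to 4.21. Nkain1, whose protein binds the beta subunit Atp1b1, read 6.79 ± 0.17, 6.89 ± 0.50 and 5.91 ± 0.89, and the lower recurrent mean did not pass (-0.88 against primary, adjusted p = 0.315). Over the 14 other family genes, 8 above background, 1 was called in residual against primary and 1 in recurrent against residual cells, Fxyd6 both times. Of all genes 12.4% and 5.78% were called in those comparisons. In recurrent against primary cells 0 were called with limma, next to 1.8% of all genes. There 2 of the 14 had an unadjusted p under 0.05, and the share of all genes under that mark was not counted. The median differences of the 14 genes were 0.10 for residual and 0.08 for recurrent cells against primary cells, and -0.05 for recurrent against residual cells.

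**Figure D3:**
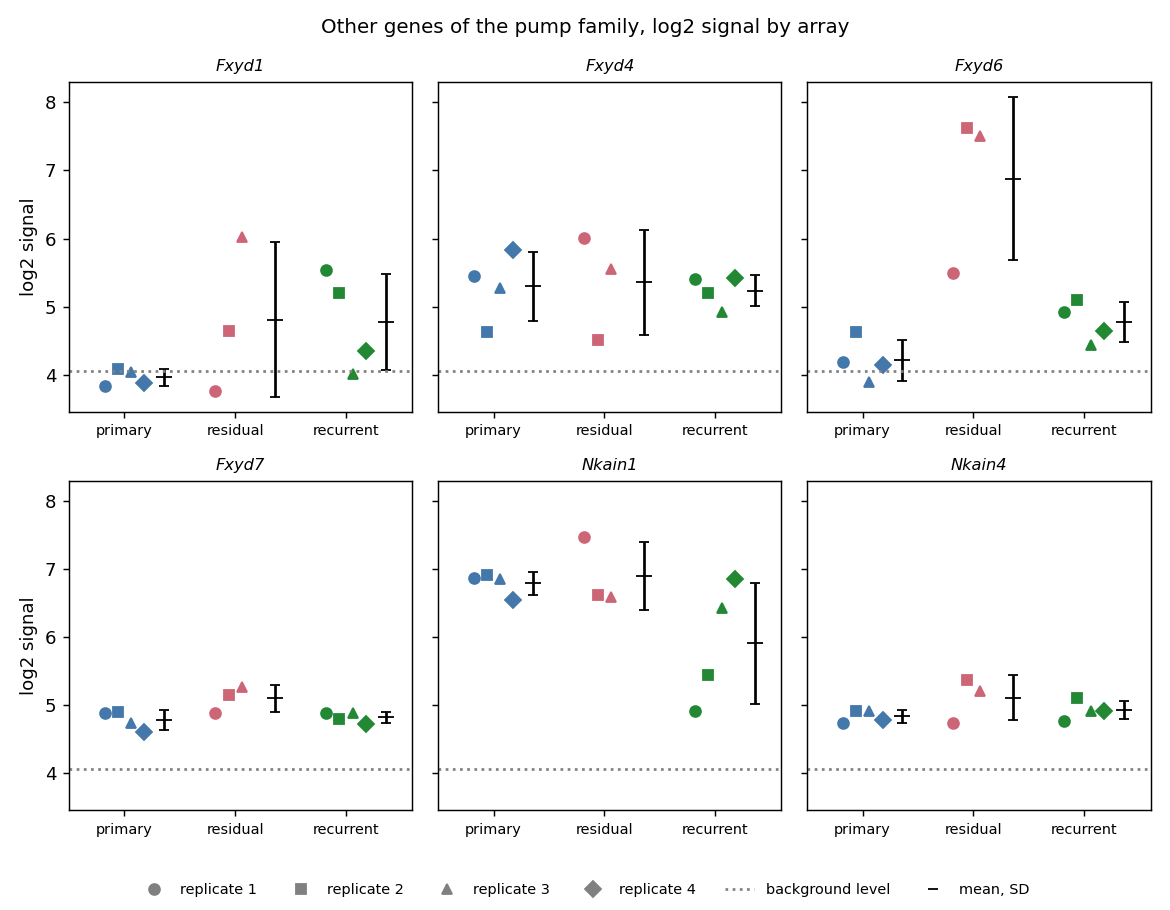
Log2 signal of 4 other FXYD genes and of Nkain1 and Nkain4, by array and group, with the mean and SD beside the points and the median background level as a dotted line. Fxyd6 has its residual arrays at 5.50 to 7.62, above all primary (3.90 to 4.63) and recurrent arrays (4.44 to 5.10).

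Fxyd3 and Fxyd5 sit in a cluster of FXYD genes on chromosome 7, and the measured genes around them were looked up after the members' values had been seen. In the order of that assembly they are Usf2, Lsr, Fam187b, Fxyd5, Fxyd7, Fxyd1, Lgi4, Fxyd3 and Hpn. Lgi4, a secreted glial protein whose gene shares 401 bases with that of Fxyd3, read 4.32, 4.28, 4.22 and 4.45 in primary, 5.66, 4.95 and 6.26 in residual, and 5.38, 5.12, 4.29 and 4.31 in recurrent cells. Its residual arrays lay above the primary arrays, and recurrent replicates 1 and 2 were the higher ones, as for Fxyd3. Lgi4 rose by 1.31 (SE 0.32, adjusted p = 0.0201, passing in 15 of 19 alternative settings) in residual against primary cells, and because the gene bodies overlap and the probes are not listed here, a shared signal between Lgi4 and Fxyd3 is uncertain.

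The other 4 neighbours did not pass in residual against primary cells: Usf2 (adjusted p = 0.601), Lsr (0.901), Fam187b (0.973) and Hpn (0.778). So, with Fxyd7 and Fxyd1, 6 genes of this stretch other than the members were not called in that comparison, while Lgi4 rose. Of all genes 12.4% were called there, so with so few genes this count does not set the stretch apart. Of the 5 neighbours, Lgi4 among them, 3 were above background on at least 3 arrays. Hpn was above background on no array, so its lack of a call is not a reading of a steady level. The difference of Lgi4 between recurrent and residual cells, -0.85, did not pass (adjusted p = 0.163).

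**Figure D4:**
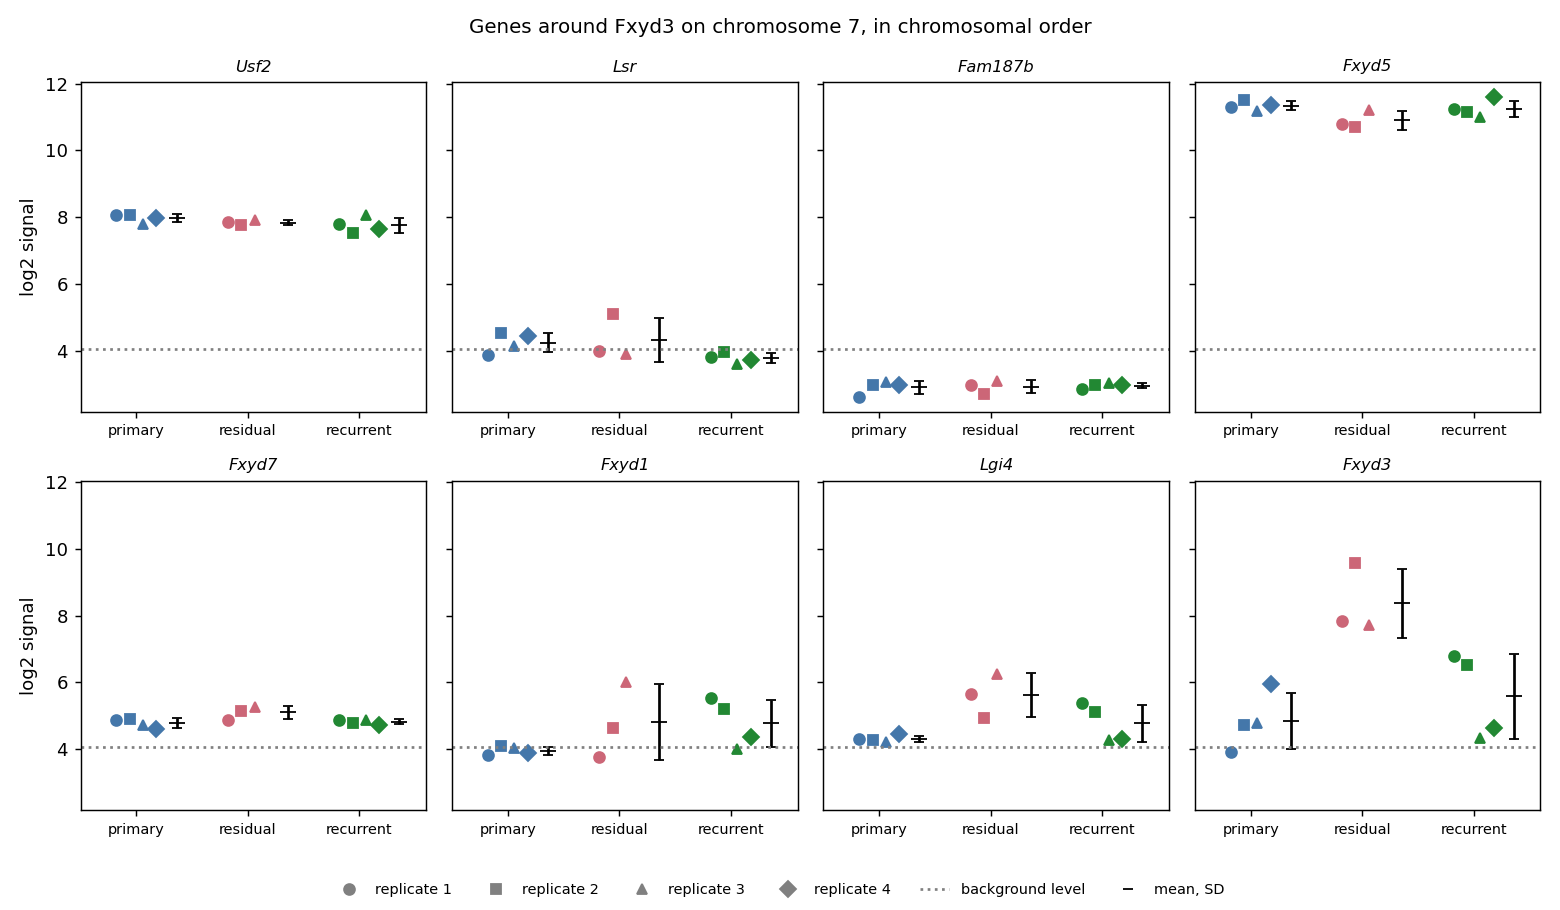
Log2 signal by array and group for 8 genes of the chromosome 7 stretch in chromosomal order, with the mean and SD beside the points and the median background level as a dotted line. Fxyd3 and Lgi4 have residual arrays above the primary arrays, while Fxyd5 stays between 10.69 and 11.59.

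Residual replicate 2 was the array with the highest Fxyd3 and Atp1b1. It was also the highest residual array for 8 of 13 luminal epithelial markers and 9 of 11 macrophage markers. The other 5 luminal markers were highest on residual replicate 3. All of this was seen after the values were known. On residual replicates 1, 2 and 3 the adhesion molecule Epcam read 3.47, 6.29 and 4.10, against 3.14 to 3.45 in primary cells. The tight-junction gene Cldn7 read 3.78, 5.95 and 3.93, and the keratins Krt19 and Krt7 read 3.91, 5.60 and 4.01, and 5.33, 7.26 and 5.38. On residual replicates 1 and 3 Epcam, Cldn7 and Krt19 were below background, as was Epcam on every primary array. The milk protein gene Csn2 read 5.04, 7.68 and 5.91. Csn2 is also among the genes picked below for likeness to Fxyd3 over these same arrays, so its high array is not separate evidence. Of the 13 luminal markers (Krt18, Krt8 and Gata3 the brightest) 8 were highest on residual replicate 2 among the residual arrays, as were 9 of 11 macrophage markers (Cd14, Tyrobp and Cd68 the brightest), 5 of 7 glial, 6 of 11 lymphocyte, 5 of 10 basal and 0 of 11 fibroblast markers, against 32.6% of all genes.

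The mean of the luminal list was 5.19, 5.94 and 5.17 on the 3 residual arrays, and that of the macrophage list 5.17, 6.07 and 5.30. Without residual replicate 2 the Fxyd3 difference was 2.93 in residual against primary and -2.19 in recurrent against residual cells. The 2 residual arrays left for Fxyd3, at 7.84 and 7.71, were both above every primary and recurrent array. What part the cells behind these markers have in the Atp1b1 level was not tested.

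**Figure D5:**
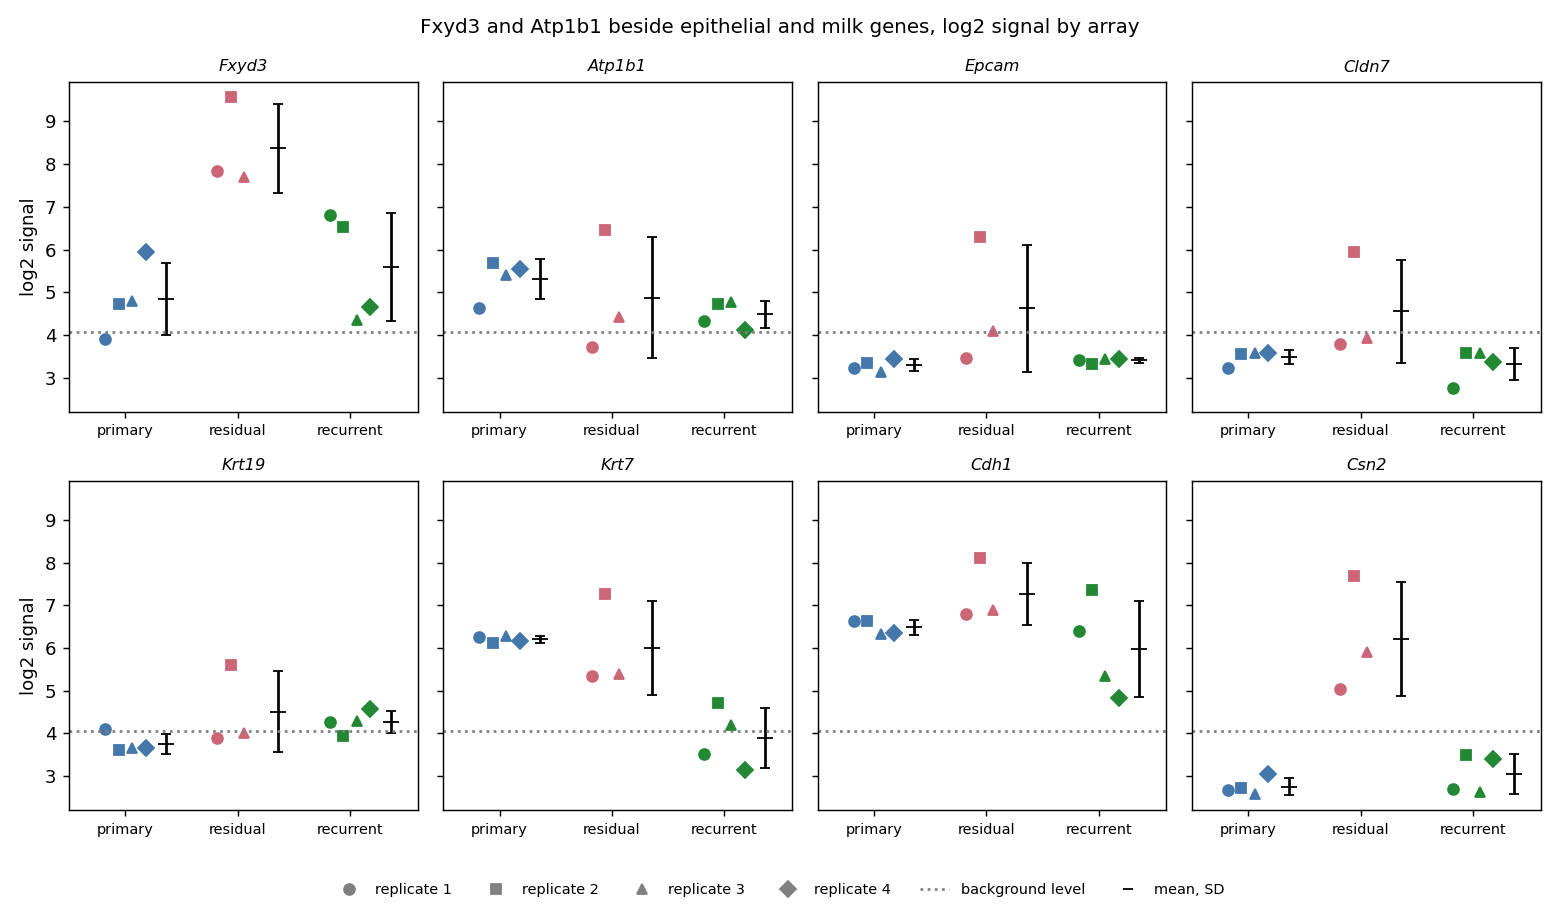
Log2 signal by array and group for Fxyd3 and Atp1b1 beside 5 epithelial genes and the milk gene Csn2, with the mean and SD beside the points and the median background level as a dotted line. The square of residual replicate 2 is the highest residual point in all 8 panels, at 9.57 for Fxyd3 and 6.47 for Atp1b1. Csn2 is also among the genes picked for likeness to Fxyd3 over these arrays.

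Some marker lists also differed between the groups. In residual against primary cells 4.81% of all genes were called higher and 7.61% lower, beside which the counts below stand. Fibroblast markers (Serpinf1, Dcn and Col1a2 the brightest) averaged 6.15 to 6.83 on primary, 8.44 to 9.65 on residual and 8.47 to 9.34 on recurrent arrays, and 9 of 11 rose in residual against primary cells. Macrophage markers averaged 6.25 to 7.02, 5.17 to 6.07 and 5.65 to 6.78, and 5 of 11 measured markers fell in residual cells. Among glial and Schwann cell markers (Pmp22, S100b and Foxd3 the brightest), 2 of 7 rose in residual cells (S100b and Sox10). The list averaged 5.06 to 5.35 on primary, 5.88 to 6.23 on residual and 5.20 to 5.66 on recurrent arrays. Its median difference in residual against primary cells was only 0.13. Of 13 luminal markers 0 rose and 2 fell in residual cells, the keratins Krt8 and Krt18, by 1.67 and 2.32 (adjusted p = 0.000103 and 0.00432), while the median difference of that list was 0.25. Among basal markers (Mme, Krt14 and Itgb4 the brightest), 2 of 10 rose and 2 fell: Krt14 and Mme rose by 2.73 and 5.32 (adjusted p = 0.000286 and 1.98e-07) and Itga6 and Itgb4 fell. The part of these marker genes in the levels of Fxyd3 and Fxyd6 was not tested.

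Transport genes and their regulators were taken as 77 genes in 4 lists, 47 of them above background. The lists were calcium pumps, sodium entry and exchange, potassium exit and regulators of sodium transport. In residual against primary cells 4 rose and 12 fell, next to 4.81% and 7.61% of all genes, with a median of 0.08. Among 15 genes of potassium exit, none rose and 3 fell. The calcium-activated potassium channel Kcnn4 fell by 1.67 (adjusted p = 0.000345), from 9.08 ± 0.13 (SD, n = 4) to 7.41 ± 0.24 (n = 3). The background potassium channel Kcnk5 fell by 1.58 (0.00101) to below background on all 3 residual arrays, and the inward rectifier Kcnj2 by 0.85 (0.0399), also to below background on those arrays. Both Kcnn4 and Kcnk5 were higher again in recurrent cells, rising by 1.64 (0.000786) and 1.90 (0.000543) over residual cells.

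Among 33 genes of sodium entry and exchange, 2 rose and 4 fell in residual cells. The taurine transporter Slc6a6 rose by 1.33 (adjusted p = 0.000508), from 9.36 ± 0.30 (SD, n = 4) to 10.69 ± 0.16 (n = 3), and the calcium exchanger Slc8a2, which was below background, by 0.50 (0.0391). The proton exchanger Slc9a2 fell by 2.10 (0.0168), with 1 residual array left above background, the phosphate transporter Slc20a2 by 1.43 (0.00162), the glycine transporter Slc6a9 by 1.03 (0.0125) and the amino acid transporter Slc38a2, named only to complete the count, by 0.55 (0.0223). Of 9 calcium pumps, the plasma membrane pump Atp2b4 rose by 1.36 (0.00695), while Atp2c2 of the secretory pathway fell by 0.88 (0.0445) to below background on all 3 residual arrays, and Atp2b1 fell by 0.55 (0.0405). Of 20 regulators, the scaffold Slc9a3r1 fell by 1.12 (0.0159), the kinases Stk39 and Wnk1 by 0.85 (0.0237) and 0.71 (0.0363), and the phosphatase inhibitor Ppp1r1a rose by 0.51 (0.0436).

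Calls among the transport genes depended on single arrays. The 16 calls became 8 without residual replicate 1 or 2, 9 without primary replicate 3 or residual replicate 3, and 10 without primary replicate 4. Kcnn4, Kcnk5, Slc6a6, Slc20a2, Atp2b4 and Slc9a3r1 passed in 19 of 19 alternative settings, Slc6a9 in 18 and Slc9a2 in 17. Fewest were 3 for Ppp1r1a and 6 of the 18 in which Slc8a2 was tested.

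In recurrent against primary cells 1 of the 77 transport genes was called, next to 1.8% of all genes. The ubiquitin ligase Nedd4l, which removes sodium channels from the membrane, fell by 0.57 (adjusted p = 0.0324), from 6.73 ± 0.15 to 6.16 ± 0.10 (SD, n = 4 each), and passed in 9 of 19 alternative settings. The count was 0 without primary replicate 1 or 4 or without recurrent replicate 2, 3 or 4, 2 without residual replicate 1 or 3, and 3 without recurrent replicate 1.

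In recurrent against residual cells 6 were called, 2 higher (Kcnk5 and Kcnn4) and 4 lower, next to 3.58% and 2.19% of all genes. The voltage-gated potassium channel Kcnh2 fell by 1.58 (adjusted p = 0.0380), Atp2b4 by 1.02 (0.0492), Slc6a6 by 0.74 (0.0293) and Nedd4l by 0.48 (0.0459). Kcnk5 and Kcnn4 passed in 19 of 19 alternative settings, Slc6a6 in 13, Kcnh2 in 8, Atp2b4 in 7 and Nedd4l in 5. The count was 2 without residual replicate 2 or recurrent replicate 3 or 4, and 3 without primary replicate 1 or 3, residual replicate 1 or 3, or recurrent replicate 1.

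A list of cell adhesion partners was taken because beta subunits and Fxyd5 act at cell contacts. Not every gene of it is an adhesion molecule. Cdh1, the E-cadherin that Fxyd5 is known to oppose, read 6.64, 6.63, 6.33 and 6.34 in primary, 6.80, 8.11 and 6.89 in residual, and 6.41, 7.36, 5.34 and 4.84 in recurrent cells, with no call. All 3 residual arrays lay above the primary arrays, and the recurrent arrays lay on both sides of them. Of the 18 genes of the list, 2 rose and 2 fell in residual against primary cells, next to 4.81% and 7.61% of all genes. Agrn, the proteoglycan agrin, rose by 0.85 (adjusted p = 0.0195) and Cldn4 by 0.72 (0.0171), while Cldn3 fell by 1.62 (0.00800) and Ankrd1 by 1.41 (0.0242). Cldn3 and Cldn4 are both claudins of tight junctions, and Cldn4 was below background on all primary and recurrent arrays and 1 residual array, so its differences are measured from background. In recurrent against primary cells Cldn3 fell by 2.19 (0.00395) and the N-cadherin gene Cdh2 by 1.21 (0.0231), and in recurrent against residual cells Cdh2 fell by 1.40 (0.00710) and Cldn4 by 0.71 (0.0312). These are 2 of 18 in each, all lower, next to 0.986% and 2.19% of all genes.

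For each member, the genes with the most similar profile were found as the smallest root mean square difference between log2 profiles centred on their own means, over the 11 arrays and about 12660 genes, those above background on at least 3 arrays without predicted and Riken genes. For Fxyd3 these were Mir181b-2 (0.770), Timp3 (0.810) and Csn2 (0.829). Timp3, an inhibitor of metalloproteases, averaged 9.49 ± 0.31 (SD, n = 4) in primary, 12.26 ± 0.08 (n = 3) in residual and 10.31 ± 0.96 (n = 4) in recurrent cells. Its recurrent replicates 1 and 2 (11.40 and 10.80) were above replicates 3 and 4 (9.74 and 9.30), a likeness to Fxyd3 that goes with how Timp3 was picked. Csn2 averaged 2.76 ± 0.20, 6.21 ± 1.34 and 3.05 ± 0.46 and was above background on the 3 residual arrays alone. For Atp1b1 they were Snord99 (0.385), Rpl34 (0.414) and Inip (0.436), for Atp1b3 Ppp2r1b (0.0864), Cttnbp2nl (0.0905) and H1f0 (0.0921), and for Fxyd5 Sac3d1 (0.120), Tmco1 (0.120) and Cnep1r1 (0.127). For Atp1b2, which lay below background, they were Fgf4 (0.126), Rp2 (0.130) and Trav13-2 (0.152). The measure grows with a gene's own spread, so the distances for Fxyd3 and Atp1b3 are not on an equal footing.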

How the data were processed

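The authors deposited 1 table of log2 signals for 11 arrays, 24479 probe sets with 1 Entrez Gene identifier each, made with RMA and R 3.0.2, per the submitters' processing notes. No source used here gives the probe annotation's version. The deposited log2 signals, between 1.10 and 13.3, were not transformed further. RMA compresses dim signals, and 38.5% of probe sets had an identical value on 2 or more arrays. Symbols came from the platform table (23281) or RefSeq by identifier (556), 642 were unnamed, and of 2 symbols with 2 probe sets the brighter was kept.

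One model of 3 groups was fitted to all arrays with limma 3.58.1 in R 4.3.3 (8 residual and 3.46 prior degrees of freedom), with two-sided moderated tests adjusted by Benjamini-Hochberg over 23835 genes. Some genes of the lists are not reported here and stay out of list counts, though not out of the fit. Figures used Python 3.11.15 and matplotlib 3.10.9. Members, lists and rules were chosen with earlier results of these data known, and the chromosome 7 neighbours and Wnt1 after their values. Named were all members, called or above-background family genes, up to 3 called genes per direction of each transport and adhesion list, the 3 brightest markers per list and 3 nearest profiles per member. Other genes named on residual replicate 2, and markers given with a test, were chosen after their values were seen. Alternatives were 3 scalings, a filter on dim genes, fits of 2 groups, a replicate block, trended robust variance, averaged probe sets and each array left out. The number of arrays limits precision. On simulated data with 200 changed genes of 23835, the residual against primary fit recovered 54% of 2-fold and 93% of 4-fold changes, recurrent against primary 69% and 93%, and recurrent against residual 52% and 92%.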

Additional observations from a re-analysis of the deposited data

Results flagged for a closer look

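Among the genes named here, 15 of 204 gene and group pairs held an array whose gap to the nearest other array of its group, over the group's range, was past Dixon's 95% critical value; chance alone marks about 1 in 20, and the residual group of 3 was not examined. None was a member. In the pump family Nkain3, whose protein is related to one that binds the beta subunit, read 4.18 on primary replicate 2 and 4.11 to 4.12 on the other 3 primary arrays, just above background.

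Recurrent replicate 3 was high in the endothelial Cdh5 (10.13, others of its group 4.66 to 5.09), the smooth muscle Actg2 (6.02) and the muscle gene Tnnt3 (6.61). Primary replicate 2 was low in Atp2b4 (5.58), Cdh2 (7.88), Slc6a6 (8.91) and Cldn4 (3.62). Primary replicate 1 was low in Inip (5.17) and Cldn7 (3.23) and high in Krt19 (4.10) and Ncr1 (3.74). Primary replicate 3 was high in Hpn (3.76), recurrent replicate 2 low in Epcam (3.32) and recurrent replicate 1 low in Slc8a2 (2.55). Hpn, Ncr1 and Slc8a2 were below background on all 11 arrays, so their spread there is that of background. The same holds for the flagged groups of Epcam, Cldn7 and Cldn4, whose arrays all lay below background.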

How the results depend on the processing

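The alternatives reversed the sign of no called difference, though some calls were lost. In the leave-one-out fits Fxyd3, as a description, was 2.93 to 3.90 in residual against primary and -3.19 to -2.19 in recurrent against residual cells. After quantile normalization Atp1b3 was 0.065 in residual against primary cells, transport calls were 10 there and 2 in recurrent against primary cells. After scaling to a common interquartile range, residual against primary cells gave 0.13 for Atp1b3 and -0.13 for Fxyd5, recurrent against residual cells gave -0.11 and 0.094, and recurrent against primary transport calls were 2. Those calls were 3 with arrays centred on their medians or with dim genes removed. Centring also moved the share of higher genes among residual against primary calls from 38.7% to 27.8% (899 of 3232). With only the 2 groups compared, other family calls were 0 in recurrent against residual cells, where all calls were 609.

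No label says whether the replicate numbers pair the arrays. Deviations of same-numbered arrays correlated at -0.11 to 0.02 in 10 pairs and those of other pairs at -0.09 to 0.11. These values show no pairing, but with so few arrays a group they cannot exclude it. With the replicate block, calls over all genes were 2198 in residual against primary, 277 in recurrent against primary and 872 in recurrent against residual cells, and transport calls 9, 0 and 2. Leaving out 1 array at a time, transport calls ranged from 8 to 15, 0 to 3 and 2 to 6 in the same order, other family calls in the last were 0 to 1, and all recurrent against primary calls were 203 to 420. Atp1b1 ranged from -1.23 to 0.14 in residual against primary and from -0.97 to 0.40 in recurrent against residual cells. Signal over background limits Atp1b2, on no array above it, and the lowest Fxyd3 and Atp1b1 arrays.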
